A study of Mus musculus with 16 samples.

Results

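The genes described here are 37 mouse genes of the lysosome, namely its cathepsins and other hydrolases, their cofactors and its membrane proteins, out of 20145 genes that could be named on the arrays. They were taken as a fixed list of symbols, and each gene was read from its brightest probe. A probe was matched for 36 of the 37, and Cd68, a membrane glycoprotein of macrophage lysosomes, was the gene without a matched probe. The study hybridised RNA of the right neocortex, rostral from bregma, of male C57BL/6J mice whose left neocortex had been removed by suction. Neonatal brain hemisuction (NBH, called NBI in the sample labels) was done at P7 and sampled after 1 week (age P14) and 4 weeks (P35). Adult brain hemisuction (ABH, called ABI in the labels) was sampled after 1 week (age 11 weeks) and 4 weeks (15 weeks). Unoperated controls were taken at P7, P14, P35 and 10 weeks, and both ABH pools were compared with the same 10-week control pool, which was younger than either.

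All animals of a group were pooled before labelling, so that each of the 8 groups is 1 RNA pool, read once with the dye Cy3 and once with Cy5 on 16 arrays. The 2 arrays of a pool are technical, so no test between conditions is possible here, and an SD of 2 dyes does not hold the spread between animals. A gene is called higher when it passed 1.5-fold with both dyes and lower when it fell to 0.75-fold or less with both dyes, each array being compared with the control array of its own dye. Changes and levels are on a log2 scale, levels being relative to the 75th percentile of signals on the array, and levels of different genes are not compared, since each rests on its own probe. Control pools lay in one row of each slide and surgery pools in the other, so position on the slide and surgery cannot be told apart. In pooled tissue, more cells of a type and more RNA per cell cannot be told apart either.

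Lysosomes are acidic organelles in which proteases, glycosidases, lipases and sulfatases degrade material taken up from outside the cell or delivered by autophagy. Most of the soluble enzymes are made as inactive precursors, carried from the Golgi by mannose 6-phosphate receptors or other sorting receptors, and activated by the low pH that the proton pump maintains. In brain every cell type holds lysosomes, and inherited loss of single lysosomal proteins causes storage diseases of neurons, while microglia and other phagocytes are known for their high content of cathepsins.

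Many of the lysosomal genes were higher in the ABH 1 week pool. Of 36 genes compared in ABH 1 week, 19 were higher and 0 were lower, against a background of 4.5% of all 16327 genes compared that were higher and 6.33% that were lower. The median change of the 33 with a readable change was 0.76, with a range from -0.28 to 1.90, while the median of all genes was -0.07. Gla, Lamp1 and Ctsb had saturated spots in both pools of this comparison and no change is given for them. All 19 lay within the 816 genes with the highest change, which is the upper 5% of all genes compared, and 5 of them lay within the upper 1%. Since 735 genes were called higher in all, a place in the upper 5% nearly follows from the call. No member that was compared passed a limit in NBH 1 week (median 0.07 over 33), NBH 4 weeks (median 0.03 over 32) or ABH 4 weeks (median 0.08 over 31). In those comparisons the background was 0.472% higher and 0.427% lower in NBH 1 week, 0.214% and 0.756% in NBH 4 weeks, and 0.448% and 0.19% in ABH 4 weeks. With so few genes called on the whole array, a count of 0 among the members is near what the background gives.

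**Figure D1:**
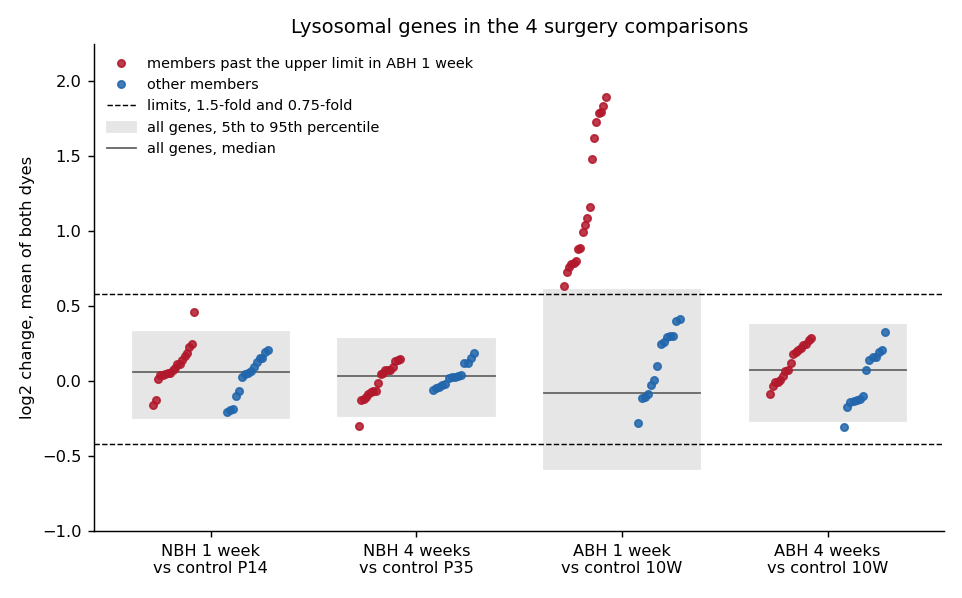
Log2 change (mean of both dyes) of each lysosomal gene in the 4 surgery comparisons. Red points are the 19 genes past the upper limit in ABH 1 week and blue points the other members, grey boxes span the 5th to 95th percentile of all genes with their median, and dashed lines mark 1.5-fold and 0.75-fold. The red points stand between 0.64 and 1.90 in ABH 1 week and between -0.30 and 0.46 elsewhere.

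Cysteine cathepsins and legumain, the asparaginyl endopeptidase that helps to process cathepsins, were the class with the largest share of higher genes. Of the 9 listed, 7 were higher in ABH 1 week, 1 (Ctsf) was not past a limit and 1 (Ctsb) was saturated, and the median change of the 8 with a value was 1.31. Ctsh, an aminopeptidase, had levels (Cy3 and Cy5) of 1.87 and 1.90 at P7, 2.16 and 2.38 at P14, 1.86 and 1.89 at P35 and 1.48 and 1.75 at 10 weeks. In the surgery pools Ctsh stood at 2.26 and 2.62 in NBH 1 week, 1.92 and 2.02 in NBH 4 weeks, 3.37 and 3.52 in ABH 1 week and 1.90 and 1.83 in ABH 4 weeks. The change in ABH 1 week was 1.83 ± 0.09 (mean ± SD of 2 dyes), or 3.56-fold, and both ABH 1 week arrays lay above every other array.

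Ctss, the protease that trims the invariant chain of MHC class II, had levels of 1.58 and 1.84 at P7, 2.98 and 3.02 at P14, 3.20 and 3.43 at P35 and 3.24 and 3.44 at 10 weeks. Its surgery pools were at 2.83 and 3.40 in NBH 1 week, 3.06 and 3.45 in NBH 4 weeks and 5.15 and 5.11 in ABH 1 week, a change of 1.79 ± 0.17 or 3.46-fold. In ABH 4 weeks the Cy5 spot of Ctss was discarded as an outlier and the gene could not be compared. The Cy3 array alone gave 3.86, 0.62 above the control array of that dye, which is past 1.5-fold with that dye. Ctsc, the dipeptidyl peptidase that activates serine proteases of granules, changed by 1.73 ± 0.17 (3.32-fold) in ABH 1 week. Ctsc levels were -0.97 and -1.02 at P7, -1.23 and -1.60 at P14, -1.61 and -1.60 at P35 and -1.62 and -1.57 at 10 weeks. After surgery Ctsc was at -1.47 and -1.32 in NBH 1 week, -1.68 and -1.54 in NBH 4 weeks, 0.24 and 0.04 in ABH 1 week and -1.58 and -1.53 in ABH 4 weeks. Ctsz, a carboxypeptidase, changed by 1.62 ± 0.02 (3.08-fold). Its levels were 2.06 and 2.08 at P7, 1.71 and 1.72 at P14, 2.04 and 2.12 at P35 and 2.08 and 2.04 at 10 weeks. After surgery Ctsz was at 1.85 and 1.74 in NBH 1 week, 1.97 and 1.96 in NBH 4 weeks, 3.69 and 3.68 in ABH 1 week and 2.13 and 2.44 in ABH 4 weeks. For Ctss, Ctsc and Ctsz, as for Ctsh, the ABH 1 week arrays did not overlap with those of any other pool.

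Ctsk, a collagen-degrading protease best known from osteoclasts, had another order of levels. It stood at 0.01 and 0.09 at P7, 1.59 and 1.63 at P14, 0.41 and 0.36 at P35 and -0.08 and 0.11 at 10 weeks. After surgery Ctsk was at 1.47 and 1.85 in NBH 1 week, 0.54 and 0.54 in NBH 4 weeks, 1.05 and 0.97 in ABH 1 week and 0.20 and -0.03 in ABH 4 weeks. Its change in ABH 1 week was 1.00 ± 0.19 (2.00-fold), yet the P14 control and NBH 1 week pools were above ABH 1 week on all arrays. It was the only one of the 19 whose highest pool was not ABH 1 week. The 19 were called by their value in that pool, so a peak there, or arrays above all others, is partly given by the call. The share of all genes that peaked in ABH 1 week was not counted. Ctsl, an endopeptidase of most tissues, changed by 0.81 ± 0.29 (1.75-fold), with its Cy5 value of 0.60 close to the limit. Ctsl levels were 4.06 and 3.87 at P7, 3.86 and 3.82 at P14, 3.38 and 3.35 at P35 and 3.27 and 3.38 at 10 weeks. After surgery Ctsl was at 3.83 and 4.13 in NBH 1 week, 3.50 and 3.50 in NBH 4 weeks, 4.29 and 3.98 in ABH 1 week and 3.70 and 3.35 in ABH 4 weeks, so that the P7 and NBH 1 week arrays overlapped with those of ABH 1 week. Lgmn (legumain) changed by 0.79 ± 0.01 (1.73-fold), with levels of 4.40 and 4.23 at P7, 4.75 and 4.57 at P14, 4.50 and 4.49 at P35 and 4.32 and 4.31 at 10 weeks. After surgery Lgmn was at 4.64 and 4.79 in NBH 1 week, 4.40 and 4.46 in NBH 4 weeks, 5.10 and 5.11 in ABH 1 week and 4.21 and 4.41 in ABH 4 weeks. Ctsf, with a change of -0.09, was the cathepsin of this class with a readable value that passed no limit.

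The other proteases were 2 of 3 higher. Ctsd, the main aspartic protease, was at 4.28 and 4.13 at P7, 4.67 and 4.54 at P14, 4.76 and 4.68 at P35 and 4.79 and 4.53 at 10 weeks. After surgery Ctsd was at 4.84 and 4.74 in NBH 1 week, 4.84 and 4.74 in NBH 4 weeks, 5.60 and 5.49 in ABH 1 week and 4.74 and 4.83 in ABH 4 weeks. Its ABH 1 week spots were saturated on both arrays, so the change is at least 1.85-fold, and a dimmer probe of Ctsd that was also measured changed by 1.99, from 1.86 with Cy3 to 2.11 with Cy5. Ctsa, a carboxypeptidase that also stabilises neuraminidase and β-galactosidase, changed by 0.78 ± 0.02 (1.72-fold), but its other probe changed by 0.40 and passed no limit. Ctsa levels were 3.93 and 3.90 at P7, 4.25 and 4.15 at P14, 4.04 and 3.95 at P35 and 3.99 and 3.92 at 10 weeks. After surgery Ctsa was at 4.26 and 4.63 in NBH 1 week, 4.10 and 4.04 in NBH 4 weeks, 4.76 and 4.71 in ABH 1 week and 4.41 and 4.08 in ABH 4 weeks. Tpp1, the tripeptidyl peptidase lost in one neuronal ceroid lipofuscinosis, changed by 0.40 ± 0.01 and passed no limit.

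**Figure D2:**
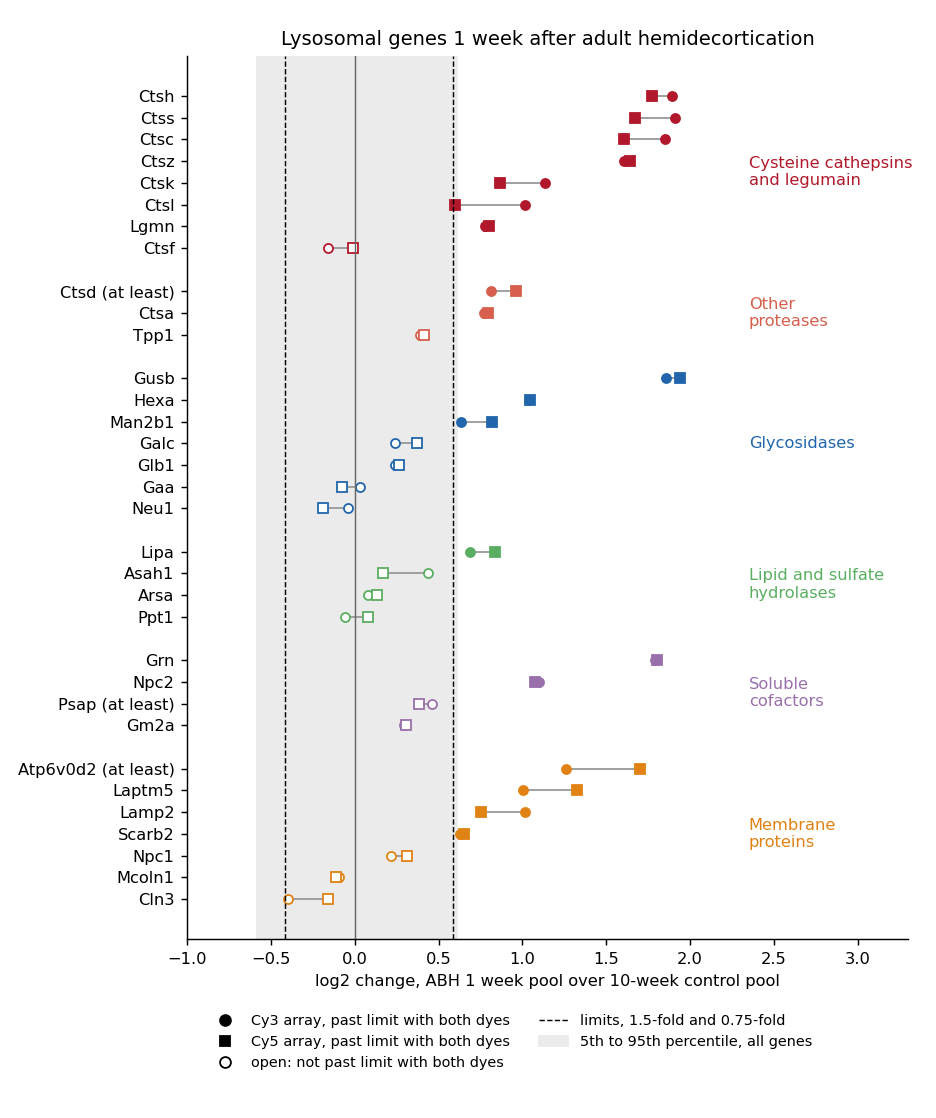
Log2 change of each lysosomal gene in the ABH 1 week pool over the 10-week control pool, by role, for the Cy3 array (circle) and Cy5 array (square). Filled marks passed the 1.5-fold limit (right dashed line) with both dyes, open marks did not, "at least" marks a lower bound, and the grey band spans the 5th to 95th percentile of all genes. The cysteine cathepsins and legumain were 7 of 8 filled and the lipid and sulfate hydrolases 1 of 4.

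Glycosidases were divided, with 3 of the 7 readable genes higher and a median change of 0.31. Gusb, the β-glucuronidase, had the highest change of all members, 1.90 ± 0.06 or 3.73-fold. Its levels were 0.36 and 0.39 at P7, -0.03 and -0.01 at P14, -0.30 and -0.38 at P35 and -0.34 and -0.39 at 10 weeks. After surgery Gusb was at 0.06 and 0.08 in NBH 1 week, -0.28 and -0.24 in NBH 4 weeks, 1.52 and 1.55 in ABH 1 week and -0.16 and -0.20 in ABH 4 weeks, and the ABH 1 week arrays stood apart from all others. Hexa, the α subunit of β-hexosaminidase, changed by 1.04 ± 0.01 (2.06-fold). Hexa stood at 1.84 and 1.88 at P7, 2.04 and 2.10 at P14, 2.32 and 2.23 at P35 and 2.19 and 2.27 at 10 weeks. After surgery Hexa was at 2.20 and 2.05 in NBH 1 week, 2.33 and 2.33 in NBH 4 weeks, 3.23 and 3.32 in ABH 1 week and 2.25 and 2.36 in ABH 4 weeks, again with ABH 1 week above every other array. Man2b1, the lysosomal α-mannosidase, changed by 0.73 ± 0.13 (1.66-fold). It was measured at 1.82 and 1.91 at P7, 2.37 and 2.26 at P14, 2.07 and 2.03 at P35 and 2.07 and 1.95 at 10 weeks. After surgery Man2b1 was at 2.56 and 2.52 in NBH 1 week, 2.19 and 2.17 in NBH 4 weeks, 2.71 and 2.77 in ABH 1 week and 1.94 and 2.08 in ABH 4 weeks. Galc (0.31), Glb1 (0.25), Gaa (-0.02) and Neu1 (-0.11), the enzymes that act on galactosylceramide, terminal galactose, glycogen and sialic acid, passed no limit.

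Among the lipid and sulfate hydrolases 1 of 4 was higher. Lipa, the acid lipase for cholesteryl esters and triglycerides, changed by 0.76 ± 0.11 (1.69-fold). Its levels were -0.43 and -0.51 at P7, -0.52 and -0.65 at P14, -0.29 and -0.41 at P35 and -0.40 and -0.52 at 10 weeks. After surgery Lipa was at -0.52 and -0.43 in NBH 1 week, -0.58 and -0.71 in NBH 4 weeks, 0.29 and 0.31 in ABH 1 week and -0.46 and -0.63 in ABH 4 weeks. Against the P35 control pool in place of the 10-week pool, Lipa no longer passed the limit with both dyes. Asah1 (0.30), Arsa (0.10) and Ppt1 (0.01), which act on ceramide, sulfatide and palmitoylated proteins, stayed within the limits.

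Of the 4 soluble cofactors, Grn and Npc2 were higher. Grn encodes progranulin, a secreted and lysosomal glycoprotein whose loss causes a ceroid lipofuscinosis, and it changed by 1.80 ± 0.01 or 3.48-fold. Grn levels were 1.93 and 1.91 at P7, 1.92 and 1.92 at P14, 1.62 and 1.64 at P35 and 1.48 and 1.37 at 10 weeks. After surgery Grn was at 1.94 and 1.58 in NBH 1 week, 1.64 and 1.72 in NBH 4 weeks, 3.27 and 3.18 in ABH 1 week and 1.31 and 1.57 in ABH 4 weeks, with no overlap between ABH 1 week and the other pools. Npc2, which hands cholesterol to Npc1, changed by 1.09 ± 0.01 (2.12-fold). It stood at 1.96 and 1.87 at P7, 2.24 and 2.12 at P14, 2.06 and 1.97 at P35 and 1.67 and 1.55 at 10 weeks. After surgery Npc2 was at 2.18 and 1.94 in NBH 1 week, 2.03 and 1.83 in NBH 4 weeks, 2.76 and 2.63 in ABH 1 week and 2.03 and 1.74 in ABH 4 weeks. Gm2a, the activator of GM2 ganglioside breakdown by β-hexosaminidase, changed by 0.30 ± 0.01. Psap, the saposin precursor, was saturated on both ABH 1 week arrays, which bounds its change to at least 1.34-fold, so that passing the limit was not measurable.

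Membrane proteins were 4 of 7 readable genes higher, with a median of 0.64. Atp6v0d2, a subunit of the proton pump known from osteoclasts and macrophages, was above background on the 2 arrays of ABH 1 week and on none of the other 14. The gene was compared only through its signal in ABH 1 week, so its place among the 19 is partly given by that filter. Its levels were -2.38 and -2.48 there, and the change against the 10-week pool, which is held at the lowest signal above background, is at least 2.79-fold. A dimmer probe of the gene, bounded the same way, gave 0.68. In the 7 other pools Atp6v0d2 had signals between -4.49 and -3.42, which are not well above background and carry no order.

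Laptm5, a lysosomal membrane protein of haematopoietic-lineage cells, changed by 1.16 ± 0.22 (2.24-fold), and its other probe by 0.99. Laptm5 levels were -0.58 and -0.50 at P7, -0.06 and -0.44 at P14, -0.32 and -0.49 at P35 and -0.23 and -0.59 at 10 weeks. After surgery Laptm5 was at 0.32 and 0.11 in NBH 1 week, -0.21 and -0.74 in NBH 4 weeks, 0.77 and 0.73 in ABH 1 week and -0.18 and -0.22 in ABH 4 weeks. Its change of 0.46 ± 0.13 in NBH 1 week was the highest of any member there, still short of the limit with both dyes. Lamp2, which together with Lamp1 lines the lysosomal membrane, changed by 0.88 ± 0.19 (1.84-fold), and a probe for another Lamp2 transcript by 0.90. Lamp2 was at 1.26 and 1.41 at P7, 1.39 and 1.46 at P14, 1.55 and 1.67 at P35 and 1.29 and 1.57 at 10 weeks. After surgery Lamp2 was at 1.31 and 1.63 in NBH 1 week, 1.38 and 1.63 in NBH 4 weeks, 2.31 and 2.32 in ABH 1 week and 1.74 and 1.60 in ABH 4 weeks. Scarb2, the receptor that carries glucocerebrosidase to lysosomes, changed by 0.64 ± 0.01 (1.56-fold), the smallest of the 19, and it did not pass against the P35 control pool. Scarb2 levels were -0.09 and -0.15 at P7, 0.13 and 0.13 at P14, 0.10 and 0.12 at P35 and -0.02 and -0.16 at 10 weeks. After surgery Scarb2 was at 0.23 and 0.12 in NBH 1 week, -0.02 and -0.01 in NBH 4 weeks, 0.61 and 0.49 in ABH 1 week and -0.11 and -0.14 in ABH 4 weeks. The highest change of an uncalled gene with an unsaturated probe was that of Tpp1, 0.40, well short of the limit. Npc1 (0.26), the calcium channel Mcoln1 (-0.11) and Cln3 (-0.28) passed no limit, and the 3 probes of Cln3 differed in sign (-0.28, 0.13 and 0.07).

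**Figure D3:**
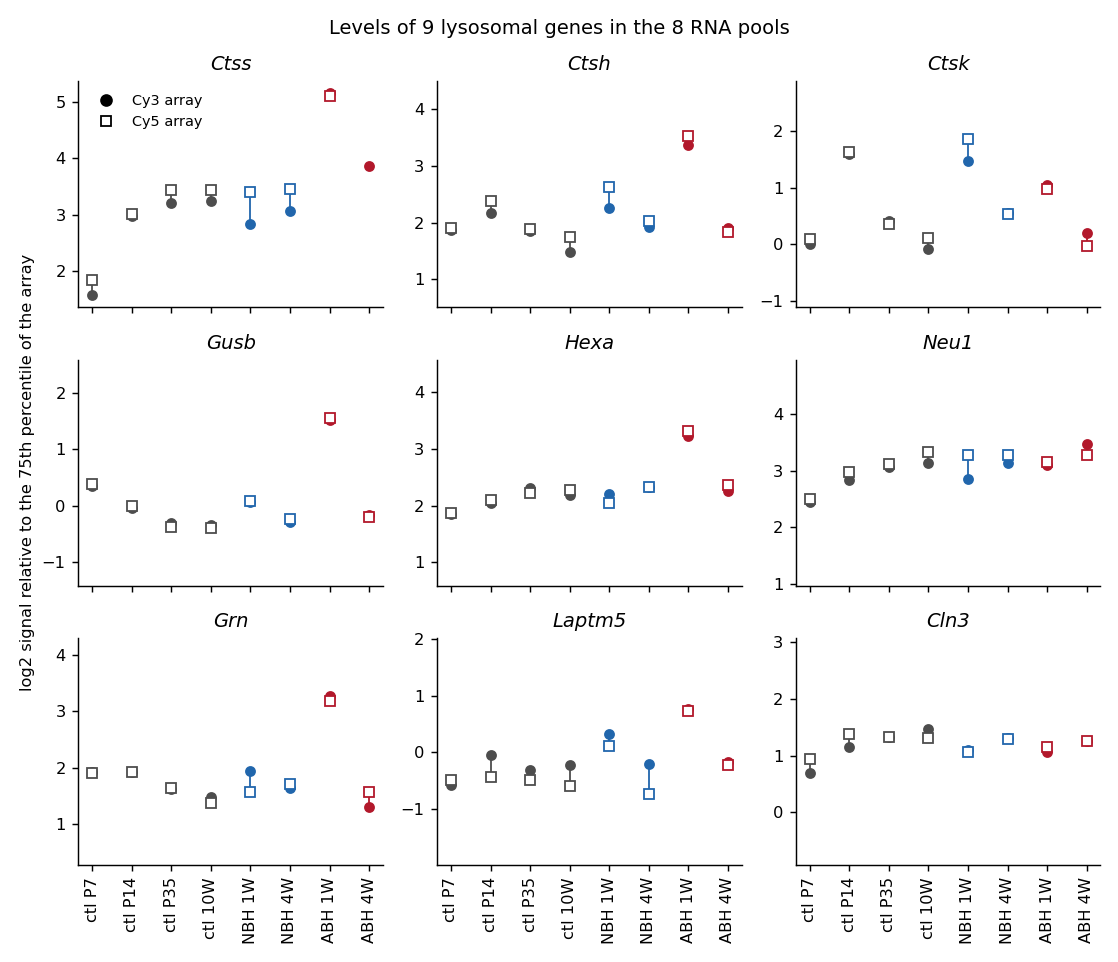
Levels of 9 lysosomal genes in the 8 RNA pools, as log2 signal relative to the 75th percentile of each array, with the Cy3 array as a filled circle and the Cy5 array as an open square (grey for controls, blue for NBH, red for ABH). Each panel has its own range of levels on an axis of nearly the same length. Ctss, Ctsh, Gusb, Hexa, Grn and Laptm5 peaked in ABH 1 week, Ctsk was highest in P14 control and NBH 1 week, and Neu1 and Cln3 passed no limit in any surgery pool.

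Promoter letters of the members are shown because many lysosomal genes are known to carry an E-box that the transcription factor TFEB and its relatives bind, and because myeloid genes carry sites for PU.1. RefSeq windows of 300 bases around the start site (build GRCm38.p6) were at hand for 32 of the 37. The E-box letters CACGTG, which read alike on both strands, were found for 12 of these 32 genes against 7.15% of all 32851 windows. Here and below members are counted by gene and the background by window, so the 2 shares are not strictly alike. Among members with a readable change in ABH 1 week the E-box letters were in 4 of the 17 higher genes with a window and in 6 of the 12 others. The longer form TCACGTGA, which contains CACGTG, was in 5 of 32 against 0.974% of all windows, and in 2 of 17 higher and 2 of 12 other genes. GAGGAAGT, searched on both strands as a PU.1 core, was in 4 of 32 against 3.2%, and in 3 of 17 higher genes (Ctss, Gusb and Ctsc) and 0 of 12 others. The stretches before the start site of Ctsa and Ctsd, which were higher, and of Cln3 and Mcoln1, which were not, are given with TCACGTGA in capitals.
Ctsa, chr2:164833720-164833772, plus strand: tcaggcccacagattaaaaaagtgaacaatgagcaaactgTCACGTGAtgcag
Ctsd, chr7:142387879-142387966, minus strand: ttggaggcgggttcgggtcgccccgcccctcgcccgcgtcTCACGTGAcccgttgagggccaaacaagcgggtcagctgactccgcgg
Cln3, chr7:126583311-126583398, minus strand: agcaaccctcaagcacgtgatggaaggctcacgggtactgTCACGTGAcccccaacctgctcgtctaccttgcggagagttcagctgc
Mcoln1, chr8:3500433-3500518, plus strand: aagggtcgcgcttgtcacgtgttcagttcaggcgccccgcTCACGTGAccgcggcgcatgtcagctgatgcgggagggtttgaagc
The stretch of Ctsc, which was higher, is given with the PU.1 letters in capitals as they read on the gene's strand.
Ctsc, chr7:88277894-88277981, plus strand: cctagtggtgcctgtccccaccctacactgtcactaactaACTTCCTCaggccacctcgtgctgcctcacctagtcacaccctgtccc
These letters are a description of the windows, and binding was not measured.

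Between the 2 ABH pools, 19 of the 35 members compared were lower at 4 weeks than at 1 week and 0 were higher, against 4.92% lower and 3.91% higher of all 16196 genes compared. Of the 19 genes higher at 1 week, 17 were among them, Ctsa changed by -0.49 without passing the limit with Cy3, and Ctss could not be compared. The 19 were called for high values in the ABH 1 week pool, which is also the baseline here. Their fall therefore largely restates the first result and is not separate evidence. Grn fell by 1.79 on the log2 scale, Gusb by 1.72, Ctsc by 1.69, Ctsh by 1.58 and Ctsz by 1.40. Glb1 and Asah1 fell by 0.55 and 0.47 and had not passed the upper limit at 1 week. The lower limit of 0.75-fold is nearer to no change than the upper limit of 1.5-fold, so the 2 calls are not alike. The other probe of Asah1 changed by -0.40 and passed no limit. Glb1 stood at 1.29 and 1.42 at P7, 0.97 and 1.08 at P14, 0.96 and 0.85 at P35 and 0.93 and 0.89 at 10 weeks. After surgery Glb1 was at 1.22 and 0.93 in NBH 1 week, 1.06 and 0.99 in NBH 4 weeks, 1.17 and 1.16 in ABH 1 week and 0.56 and 0.65 in ABH 4 weeks. Asah1 stood at 0.38 and 0.25 at P7, 0.39 and 0.47 at P14, 0.63 and 0.60 at P35 and 0.56 and 0.62 at 10 weeks. After surgery Asah1 was at 0.47 and 0.25 in NBH 1 week, 0.59 and 0.54 in NBH 4 weeks, 0.99 and 0.79 in ABH 1 week and 0.49 and 0.34 in ABH 4 weeks. In ABH 4 weeks the 17 genes that had been higher and could be compared lay between -0.08 (Lipa) and 0.29 (Ctsa) of the 10-week control, with a median of 0.13 beside 0.07 for all genes.

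In the NBH pools the same genes showed small changes. Over the 18 of the 19 that could be compared in NBH 1 week, changes ran from -0.16 (Grn) to 0.46 (Laptm5). Their median was 0.08 beside 0.06 for all genes, and 7 were above 0 with both dyes while 1 (Npc2) was below 0 with both. In NBH 4 weeks they ran from -0.30 (Lipa) to 0.15 (Ctsk), 9 above 0 and 6 below 0 with both dyes. The median there was 0.02 beside 0.04 for all genes. The difference between neonatal and adult surgery was not tested, since each rests on 1 pool.

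In control cortex the members differed with age in both directions. From P7 to 10 weeks 4 of 35 compared were higher and 5 were lower, below the background of 15.8% and 21% of all 16373 genes compared. Ctss was higher by 1.63 ± 0.04, the largest change with age among the members, most of it between P7 and P14. Tpp1 was higher by 0.93 ± 0.14, with levels of -0.28 and -0.17 at P7, 0.39 and 0.44 at P14, 0.73 and 0.57 at P35 and 0.74 and 0.66 at 10 weeks. After surgery Tpp1 was at 0.51 and 0.57 in NBH 1 week, 0.78 and 0.58 in NBH 4 weeks, 1.13 and 1.07 in ABH 1 week and 0.86 and 0.69 in ABH 4 weeks. Gaa, the acid α-glucosidase, was higher by 0.83 ± 0.11, and both of its probes passed. Gaa stood at 4.42 and 4.44 at P7, 4.79 and 4.85 at P14, 5.32 and 5.27 at P35 and 5.18 and 5.34 at 10 weeks. After surgery Gaa was at 4.81 and 5.14 in NBH 1 week, 5.27 and 5.25 in NBH 4 weeks, 5.21 and 5.27 in ABH 1 week and 5.53 and 5.32 in ABH 4 weeks. Neu1, the lysosomal sialidase, was higher by 0.76 ± 0.11, at 2.45 and 2.50 at P7, 2.84 and 2.97 at P14, 3.06 and 3.12 at P35 and 3.13 and 3.34 at 10 weeks. After surgery Neu1 was at 2.85 and 3.28 in NBH 1 week, 3.14 and 3.28 in NBH 4 weeks, 3.09 and 3.15 in ABH 1 week and 3.47 and 3.27 in ABH 4 weeks. These last 3 genes passed no limit in any surgery pool.

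Gusb fell by 0.73, Ctsl by 0.64, Ctsc by 0.59, Grn by 0.49 and Gm2a by 0.48 between the same control ages. All but Gm2a were among the genes higher in ABH 1 week, where Gusb, Ctsc and Grn stood above their P7 level as well. Gm2a peaked at P14 on both arrays, with levels of -0.11 and -0.07 at P7, 0.32 and 0.30 at P14, -0.31 and -0.20 at P35 and -0.54 and -0.60 at 10 weeks. After surgery Gm2a was at 0.10 and 0.10 in NBH 1 week, -0.21 and -0.23 in NBH 4 weeks, -0.24 and -0.30 in ABH 1 week and -0.41 and -0.41 in ABH 4 weeks. Since the 10-week control is the youngest adult pool and no control of 11 or 15 weeks was used, change with age after 10 weeks cannot be told apart from surgery in the ABH comparisons.

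**Figure D4:**
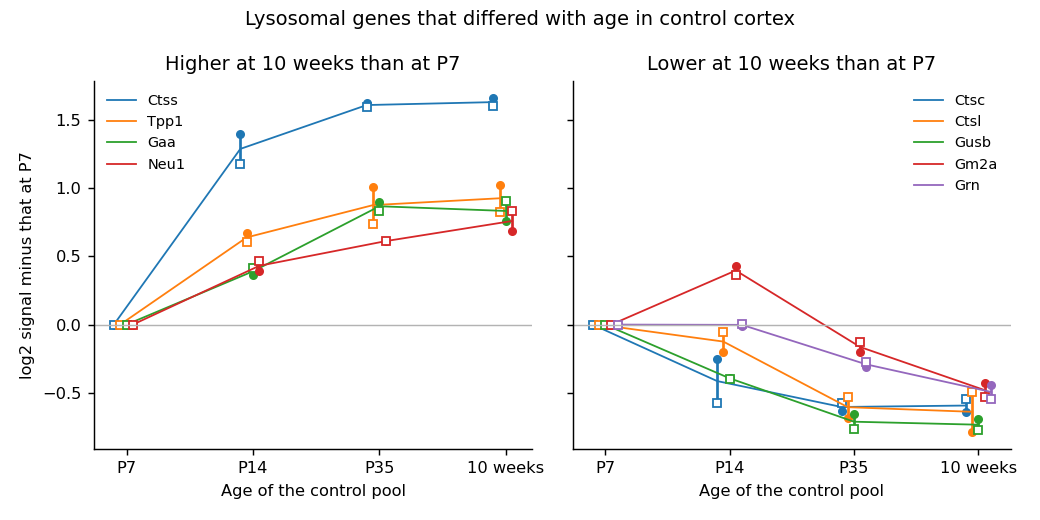
Log2 signal minus that at P7 in the 4 control pools for the 9 lysosomal genes past a limit between P7 and 10 weeks, with the line through the mean of both dyes, circles for Cy3 and open squares for Cy5. Ctss was 1.63 higher at 10 weeks and Gusb 0.73 lower, and Gm2a was highest at P14.

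Other lysosomal genes were less often higher in ABH 1 week than the members, but more often than all genes. Of 85 such genes outside the list, 84 were compared and 78 had a readable change. Of these 78, 10 (12.8%) were higher, beside 57.6% of the readable members and 4.5% of all genes compared. The count of lower genes was 1, beside 6.33% of all genes. Their median change was 0.01 beside -0.07 for all genes. Other hydrolases had 5 of 23 higher, the largest being Acp5, an acid phosphatase of osteoclasts and macrophages (3.85) and Naglu (1.26), while Ctsw, a cathepsin of cytotoxic lymphocytes, fell by 0.53. Other membrane and transport proteins had 2 of 21 higher, the tetraspanin Cd63 (1.20) and the channel Mcoln2 (0.85). The proton pump had 2 of 14 readable subunits higher, Tcirg1 (1.17) and Atp6v0e (0.68), with a list median of -0.07 beside -0.07 for all genes. Sorting receptors and regulators, which include M6pr and Tfeb, had 0 of 17 past a limit. Of the cathepsin inhibitors 1 of 3 was higher, Cst7 or cystatin F, with a change of 4.09 or at least 17.0-fold. Cst7 was also the one such gene higher in ABH 4 weeks, by at least 2.15-fold, and none was called in the NBH comparisons.

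Markers of other cell types also passed the limits. Of the 16 homeostatic microglia genes, 10 were higher in ABH 1 week, with a median change of 0.90, and their summed level (1 being the 75th percentile of an array) was 232 to 238 there against 104 to 178 in the other pools. The 10 were Tyrobp (2.28), C1qa (2.11), Trem2 (2.04), C1qc (1.99), C1qb (1.95), Fcrls (1.57), Aif1 (1.40), Cx3cr1 (0.90), Gpr34 (0.89) and Csf1r (0.84). P2ry12 (0.49), Tmem119 (0.39), Sall1 (0.30), Itgam (-0.18) and Olfml3 (-0.49) passed no limit, and Siglech was saturated. The summed level is weighted to its brightest probes, which in the 10-week control were Siglech (5.61) and Itgam (5.53). Genes of monocytes and border macrophages were 7 of 11 higher, led by Lyz2 (5.24) and Ms4a7 (3.52). Their summed level was 15.3 to 15.4 against 2.64 to 3.91, and Lyz2 was its brightest probe in ABH 1 week (2.56). Among the 11, Lyve1 had the lowest change (-0.15) and Ccr2 was counted too, while Cd163 was above background in no pool. Msr1, Arg1 and Cd36 were above background on both ABH 1 week arrays and on no array of the 10-week control. Like Ccr2, they entered the 11 only through their signal in ABH 1 week, so the share of 7 is partly given by that filter. Ccr2, which defines circulating monocytes, was near background in every pool, with both ABH 1 week arrays and 1 of the 2 arrays of the 10-week control above it, so its change is not read. Genes of lipid-laden phagocytes were 6 of 7 readable higher, among them Gpnmb (6.15) and Spp1 (5.98). Itgax of this list was likewise compared only through its signal in ABH 1 week. In NBH 1 week 3 of 5 readable genes of the same list were called higher, namely Gpnmb (1.15), Spp1 (0.98) and Lgals3 (0.78). The P14 control had Gpnmb and Spp1 above background on only 1 of its 2 arrays, so these 2 changes are not read. Spp1 at -2.45 in NBH 1 week was below its level at P7 (-2.21), P35 (-2.42) and 10 weeks (-2.25). In NBH 4 weeks 1 of 6 was higher, Gpnmb (0.69), while no lysosomal member was called in either NBH pool. Genes of the meninges were 5 of 10 higher, with sums of 62.3 to 62.9 against 9.9 to 21.1, and blood genes 3 of 4 higher, with sums of 103 to 110 against 37.2 to 101. Blood genes were also 3 of 4 higher in NBH 4 weeks, with a median change of 0.88 and sums of 87.7 to 101 against 55.1 to 57.7 in the P35 control. Neuron genes had 0 of 7 readable past a limit. The part of these cells in the change of the lysosomal genes was not tested.

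All 7 genes of neocortical projection neurons were above background on both arrays of every pool. Of these 7 genes, 6 were below 0 with both dyes in ABH 1 week, with none past a limit. Their median was -0.23 beside -0.07 for all genes. Scaling to the median moved the median of all genes there to 0.18, and these 7 genes were not read under that scaling. In ABH 4 weeks their median was -0.24 beside 0.07 for all genes, and 1 of the 7 was lower. Choroid plexus genes summed to 1.72 to 2.65 in the controls and ABH 1 week but to 36.4 to 36.5 in NBH 1 week, 17.1 to 17.7 in NBH 4 weeks and 28.1 to 29.6 in ABH 4 weeks. In these last 3 pools the sum is weighted to its brightest probe, Ttr (5.05, 3.94 and 4.66). Of 9 genes compared, 7 were higher in NBH 1 week, 3 in NBH 4 weeks and 7 in ABH 4 weeks, beside 1 of 7 in ABH 1 week. Striatum genes were 6 of 10 higher in ABH 4 weeks and 6 of 10 lower in NBH 4 weeks. The lysosomal genes that were compared passed no limit in the 3 pools with choroid plexus signal, Ctss being left out in ABH 4 weeks. The part of either tissue in the values of the lysosomal genes was not tested.

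**Figure D5:**
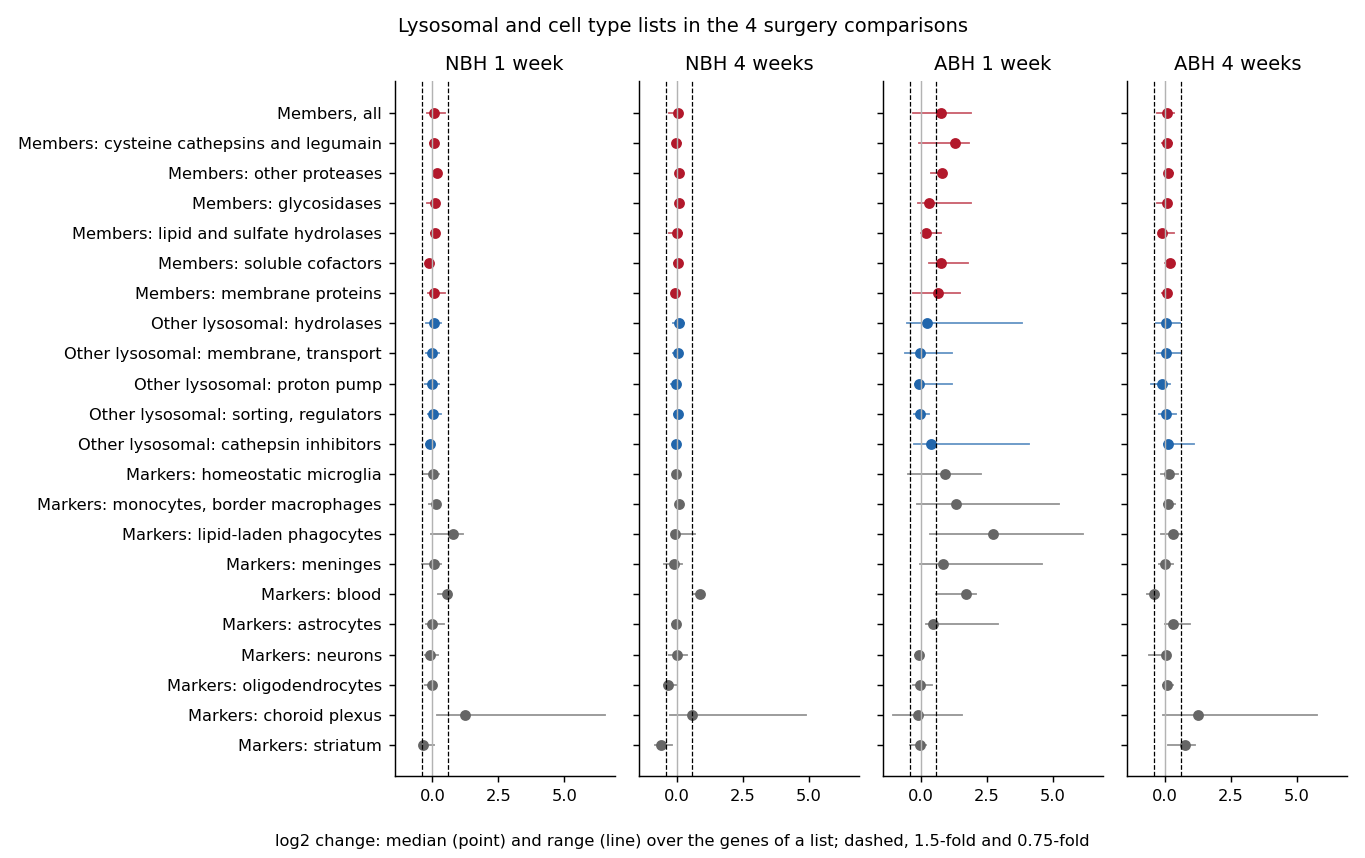
Median (point) and range (line) of the log2 change over the genes of each list in the 4 surgery comparisons, for the lysosomal members (red), other lysosomal genes (blue) and cell type markers (grey), with 1.5-fold and 0.75-fold dashed. In ABH 1 week the members had a median of 0.76 beside 0.01 for the other lysosomal genes and 0.90 for homeostatic microglia.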

How the data were processed

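Pooled RNA of 8 groups was hybridised to Agilent mouse whole-genome arrays (8 × 60K format), each pool once with Cy3 and once with Cy5. The files deposited by the authors hold the spot intensity from Agilent Feature Extraction 11.0.1.1, before scaling between arrays, and a table of the authors' processed intensity values, which lay within 0.497% of the scanner values above 100. Scanner headers name the mouse build mm9.

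From the median intensity of the labelled channel, background was removed with normexp (limma 3.58.1, R 4.3.3, offset 50), log2 was taken, and each array was scaled to its 75th percentile over gene spots. Control spots and spots flagged as outliers were left out, and spots of a probe were averaged. Of 55681 probes, 26582 matched a gene of the RefSeq table through their accession, giving 20145 genes, each read from its brightest probe. A gene was compared if 1 or both pools had it well above background with each dye. A pool with neither array above background was held at the lowest signal above background on the array, or its own signal where that was higher, which gives a bound. Where both pools had a saturated spot, or the dimmer one did, no change is given. Limits of 1.5-fold and 0.75-fold are those the study gives for its RT-PCR check, and its own selection of array genes, by log-ratio significance and dye exchange, was not repeated here. Tables were made with Python 3.11.15, numpy 2.4.6 and pandas 2.3.3, and figures with matplotlib 3.10.9. The calling code was tested on simulated data.

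Arrays had a median signal of 192 to 253 and a background of 59 to 72, with 60.2% to 72.2% of gene spots above background and 0.988% to 2.05% saturated. The number of arrays, 2 for each pool, limits the precision. With 1 pool in each group no p-value is given. The genes and lists were chosen with earlier results of these data known. All members called in any comparison are named with their values, and other members with their change or as a range. Other lysosomal genes are named where called, at most 3 for each list and direction. Values of 2 genes of these and the marker lists are not reported here. Alternatives were the processed signal, the authors' value table, quantile and median scaling, an offset of 0, other background filters, 2-fold limits, each dye alone, another control pool and the mean over probes.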

Additional observations from a re-analysis of the deposited data

Results flagged for a closer look

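Npc2 was below 0 with both dyes in NBH 1 week (-0.12) and higher with both in ABH 1 week (1.09), which differ by 1.21. Lipa was higher with both dyes in ABH 1 week (0.76) and below 0 with both in ABH 4 weeks (-0.08), a difference of -0.84 between comparisons that share the 10-week control. Neither difference was tested. Each array also recorded the channel of the dye that was not used, where 0.755% to 1.43% of gene spots were well above background. There the brightest probes gave signal on 2 arrays of a surgery pool and fewer of its control, namely Gla in NBH 1 week (2 arrays against 1), Ctsb in ABH 1 week (2 against 0) and Lamp1 in ABH 1 week (2 against 0), and all 3 probes were saturated in the labelled channel of those pools.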

How the results depend on the processing

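The count of 19 members higher in ABH 1 week stayed between 17 and 20 under every alternative except 2-fold limits, which left 10. All called members kept their direction wherever they could be compared. Lipa and Scarb2 were lost against the P35 control pool, Ctsa with the mean over all probes, Ctss could not be compared after quantile normalization, and Atp6v0d2 could not when all 4 arrays had to be above background. The median change in ABH 1 week was 0.84 in the authors' value table, 1.02 with scaling to the median and 0.62 against P35, and 0.66 to 0.75 with 1 dye left out. Scaling to the median moved the median of all genes in that comparison from -0.07 to 0.18, and of the genes called over the whole array 80.5% were then higher, in place of 41.5%. That share was 71.5% with quantile normalization. The median change in NBH 1 week was -0.13 in the value table without scaling and ranged from 0.035 to 0.172 with 1 dye left out. In NBH 4 weeks it was 0.021 with the processed signal, -0.208 in the value table, 0.016 with quantile normalization, -0.033 with scaling to the median and 0.076 against the 10-week control, and 1 member was lower in the value table. In ABH 4 weeks it was 0.113 with the processed signal, -0.053 in the value table, 0.023 with quantile normalization, 0.028 with scaling to the median, 0.100 with no background filter and -0.012 against P35. With 1 dye left out it ranged from 0.035 to 0.073, and the count higher ranged from 0 to 1, since Ctss is then read from Cy3 alone. These medians near 0 changed sign with the scaling and carry no direction. The causes of these differences were not tested. No paired analysis was possible because each group is 1 pool and its replicate numbers mark the dye, by which every comparison is already matched. Saturation limits Gla, Lamp1, Ctsb, Ctsd and Psap.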
